A study of Mus musculus with 6 samples.

Results

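Genes of the creatine and calcium futile cycles were examined in brown adipose tissue of mice that lack seipin in brown adipocytes. The set was fixed by name and holds 9 genes: Ckb, Ckmt1, Ckmt2, Gatm, Gamt, Slc6a8 and Alpl for creatine, and Atp2a2 and Ryr2 for calcium. Of these, 7 are among the 12966 genes of the expression table, and all 7 had a mean of at least 1 FPKM (fragments scaled for transcript length and library size) over the libraries and were tested. Ckmt1 and Ryr2 are not listed and were not analysed here. The tissue came from 10 week old male C57BL/6J mice, with 3 libraries from animals carrying floxed Bscl2 alleles (Bscl2f/f, called Ctrl) and 3 from Bscl2f/f animals that also carried Ucp1Cre (called BKO). Both groups carry the floxed alleles, and no treatment is named for either. Cre in this line is driven by the Ucp1 promoter, so other cells of the tissue keep Bscl2. Only BKO carries the transgene, and its effect cannot be told apart from the loss of Bscl2. The labels do not say that each library is a separate animal, so every p-value here rests on the spread among these 6 libraries alone, and that spread could be technical.

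A futile cycle spends ATP with no net product and so releases heat. In the creatine cycle, creatine kinase transfers phosphate from ATP to creatine and a phosphatase frees the creatine again, which returns ADP to the respiratory chain. In the calcium cycle, SERCA pumps (sarco/endoplasmic reticulum calcium ATPases) move calcium into the endoplasmic reticulum at the cost of ATP, and release channels such as ryanodine receptors let it flow back. Both cycles have been described in thermogenic fat as heat sources beside Ucp1, the uncoupling protein of brown adipocytes.

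The values are FPKM with unknown numbers of reads, so the depth behind each value is unknown. The FPKM of all genes summed to between 1119230 and 1617960 in 5 libraries and to 2808870 in BKO-3. A mitochondrial tRNA gene was the largest single contributor in every library, with 16.3% to 30.7% of the sum. Scale factors from the median ratio over genes above 0 in every library differed far less. They ran from 0.970 in Ctrl-3 to 1.03 in Ctrl-1, with 1.01 in BKO-3. Bscl2 checked the labels: it stood at 116, 104 and 106 FPKM in Ctrl and at 16.5, 16.9 and 18.9 FPKM in BKO, a log2(FPKM + 1) change of -2.57 (SE 0.0788, adjusted p = 3.95e-05 by limma and the Benjamini-Hochberg method). Ucp1 marked the tissue at 2484 to 3498 FPKM in Ctrl and 2943 to 2979 FPKM in BKO. Fast skeletal muscle markers differed widely between libraries: their 14 listed genes of 17 summed to 170.5 to 771 FPKM in Ctrl and 212 to 523 FPKM in BKO, highest in Ctrl-1 and next in BKO-2.

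Of the members, Ckb and Ckmt2 vary most across the libraries on the log2 scale and in different ways. For this reason the promoters of these 2 genes, for the brain-type and the sarcomeric mitochondrial creatine kinase, are shown. They run from upstream of the gene's start into its first transcribed bases, from RefSeq on GRCm38.p6, and both genes lie on the minus strand, Ckb at chr12:111672289-111672588 and Ckmt2 at chr13:91876836-91877135. Capitals mark the TATA box (TATAAA), the CCAAT box (CCAAT) and the E-box (CANNTG), searched on both strands.
Ckb: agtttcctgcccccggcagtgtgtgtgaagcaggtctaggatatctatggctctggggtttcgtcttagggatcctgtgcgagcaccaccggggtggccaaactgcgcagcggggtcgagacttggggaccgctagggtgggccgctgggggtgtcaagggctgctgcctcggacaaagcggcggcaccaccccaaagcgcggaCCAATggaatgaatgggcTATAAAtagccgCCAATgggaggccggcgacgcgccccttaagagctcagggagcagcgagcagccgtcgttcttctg
Ckmt2: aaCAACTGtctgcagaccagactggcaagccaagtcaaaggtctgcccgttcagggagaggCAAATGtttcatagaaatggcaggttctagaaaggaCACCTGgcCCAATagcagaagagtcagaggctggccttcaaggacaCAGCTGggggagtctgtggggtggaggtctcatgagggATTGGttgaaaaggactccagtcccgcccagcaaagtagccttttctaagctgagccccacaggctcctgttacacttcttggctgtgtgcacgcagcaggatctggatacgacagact
The Ckb window holds a TATA box whose first base is 28 bases before the start, and CCAAT boxes at 46 and 16 bases before it. The Ckmt2 window holds no TATA box but has CCAAT boxes at 145 and 69 bases before the start, and E-boxes at 248, 189, 153 and 107 bases before it. Among 32851 promoter windows of the same length in that table, 13.6% hold TATAAA, 37.4% hold CCAAT and 72.3% hold CANNTG on either strand. Neither window holds the cyclic AMP response element TGACGTCA, which 1.79% of windows hold. These matches are descriptions of the letters only.

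Ckb, the brain-type creatine kinase and the creatine kinase most tied to the creatine cycle of brown fat, was the single member whose groups did not overlap. In order of replicate number it stood at 12.6, 9.93 and 18.6 FPKM in Ctrl and at 31.8, 35.4 and 30.9 FPKM in BKO, and values below keep that order. All 3 BKO libraries lay above all 3 Ctrl libraries, and the lowest BKO value was 1.66 times the highest Ctrl value. The means were 13.7 ± 4.43 and 32.7 ± 2.40 FPKM (SD, n = 3 per group), a ratio of 2.39. The difference in log2(FPKM + 1) was 1.24 (SE 0.196, 95% interval 0.78 to 1.70). It did not pass the test over all genes (limma adjusted p = 0.106, unadjusted p = 0.000334), although it ranked 36 of 11397 by p. The exact two-sided permutation p for its FPKM was 0.1, the smallest that 3 against 3 libraries allow. Without Ctrl-3, the highest Ctrl library, the difference was 1.46 and passed (limma adjusted p = 0.0184). That omission takes out the Ctrl value nearest to BKO, which widens the gap. With any other single library left out the difference did not pass (limma adjusted p 0.142 to 0.362), and it was 1.04 without Ctrl-2.

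**Figure D1:**
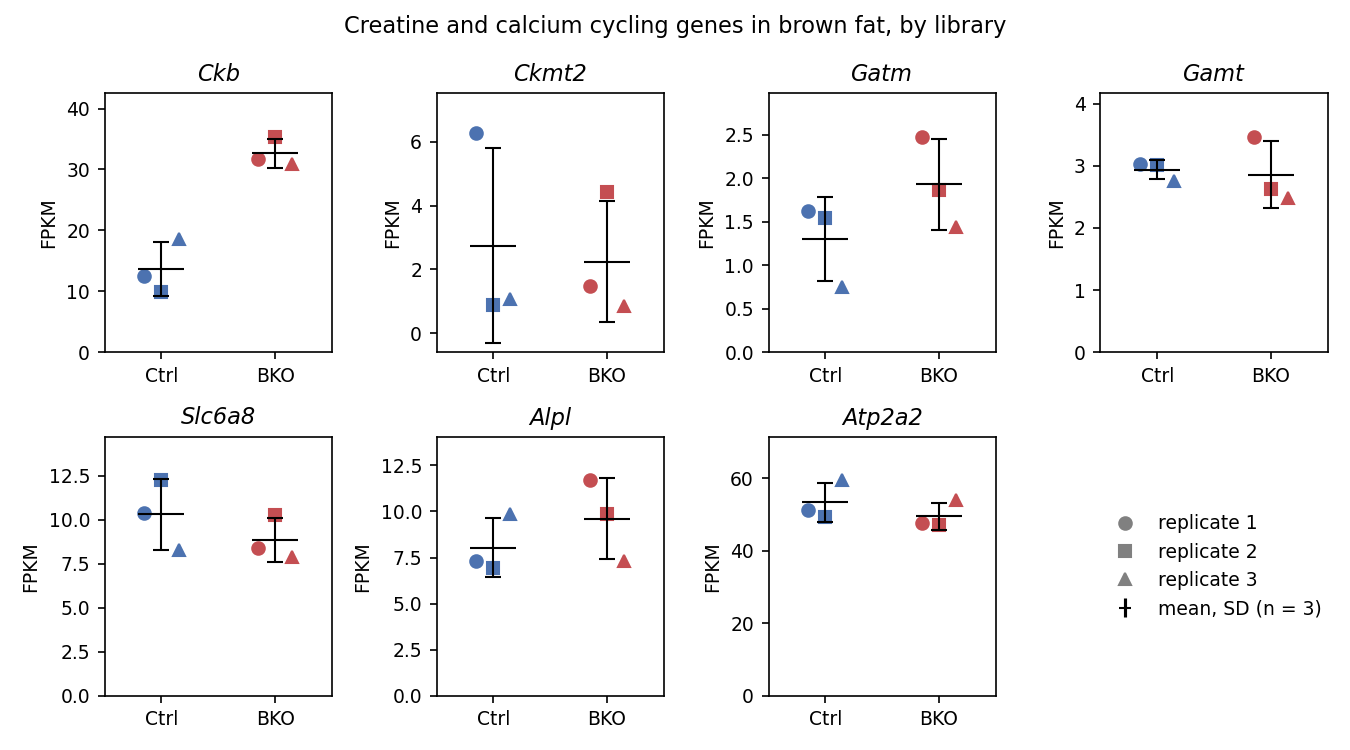
FPKM of the 7 listed members in each library (vertical axes, each with its own scale), Ctrl in blue and BKO in red, with symbols for replicate numbers and black bars for the mean and SD of 3 libraries. For Ckb the 3 BKO libraries lie at 30.9 FPKM or more and the Ctrl libraries at 18.6 FPKM or less, and for the other 6 genes the groups overlap.

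Of the 7 tested members, 0 passed at an adjusted p below 0.05 with limma, against 0.167% of all 11397 genes (0.158% higher and 0.00877% lower in BKO). At an unadjusted p below 0.05 there was 1 member, Ckb, where 10.2% of all genes reached that level (6.63% higher and 3.52% lower). Groups that do not overlap were also found for 1 of 7 members, Ckb, beside 15.9% of all genes (9.06% above and 6.82% below). In direction, 3 members had a positive and 4 a negative log2 difference, with a median of -0.04, where the median over all tested genes was 0.01. With 7 genes these shares are too coarse to set the set apart from the table.

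The summed macrophage markers, like Ckb, were higher in every BKO library than in any Ctrl library. The 14 listed macrophage markers of 16 summed to 56.0 to 89.2 FPKM in Ctrl and 161 to 201 FPKM in BKO. Within the groups the order differed from that of Ckb, though 3 libraries per group are too few to read an order from. Ctrl-3 had the lowest marker sum (56.0 FPKM) but the highest Ctrl value of Ckb (18.6 FPKM). BKO-1 had the highest marker sum (201 FPKM), whereas Ckb was highest in BKO-2 (35.4 FPKM). All 12 tested macrophage markers had a positive log2 difference and 4 of them rose past the test over all genes, and none of the 14 was listed at 0 in any library. Their most abundant member, Lyz2, macrophage lysozyme, averaged 23.8 ± 6.20 FPKM in Ctrl and 84.2 ± 10.5 FPKM in BKO (SD, n = 3 per group). The 2 listed markers below the filter were Itgam, above Ctrl in every BKO library, and Cd163, below it in every BKO library. In bulk tissue, fewer or more cells of a type and less or more RNA per cell cannot be told apart, and the part of macrophage RNA in the Ckb difference was not tested. Markers of preadipocytes and fibroblasts summed to 336 to 439 FPKM in Ctrl and 436 to 509 FPKM in BKO, while endothelial markers (316 to 372 against 349 to 368 FPKM), smooth muscle and pericyte markers (196 to 223 against 203 to 217 FPKM) and Schwann cell and nerve markers (75.2 to 95.5 against 86.4 to 119 FPKM) overlapped more widely. With the mean level of the fast muscle markers as a covariate, the Ckb difference was 1.24 (limma adjusted p = 0.153).

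The 3 genes most like Ckb across the 6 libraries, by the root mean square difference between centred log2(FPKM + 1) profiles, were Nnmt, Ankrd33b and Slc9a3r1. Nnmt, nicotinamide N-methyltransferase, which uses the same methyl donor as creatine synthesis, differed from the Ckb profile by 0.178. Its values were 23.7, 20.1 and 49.8 FPKM in Ctrl and 60.4, 69.7 and 70.3 FPKM in BKO, with Ctrl-3 the highest control, as for Ckb. Ankrd33b, an ankyrin repeat gene, differed by 0.193 and stood at 0.582, 0.753 and 1.23 FPKM in Ctrl and 2.87, 2.80 and 2.94 FPKM in BKO. Slc9a3r1, a scaffold of membrane transporters, differed by 0.272 and stood at 3.12, 2.76 and 3.40 FPKM against 6.23, 6.87 and 5.79 FPKM. These profiles share the same 6 libraries and the likeness carries no test.

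Ckmt2, the sarcomeric mitochondrial creatine kinase, had its high values in the libraries with the most muscle markers, in both groups. It stood at 6.26, 0.881 and 1.08 FPKM in Ctrl and 1.47, 4.42 and 0.846 FPKM in BKO. Ctrl-1 and BKO-2 were high, the other 4 libraries were low, and the groups overlapped completely. The difference was -0.07 (95% interval -1.43 to 1.30, limma adjusted p = 0.982), an interval too wide to exclude a doubling or a halving of FPKM + 1. Leaving out 1 library moved the difference between -0.52 and 0.56, positive without Ctrl-1, BKO-1 or BKO-3. With the mean level of the fast muscle markers as a covariate, the difference was -0.03 (limma adjusted p = 0.965). Its SE was 0.149 in that fit, against 0.583 without the covariate. Ckm, the muscle creatine kinase, had the same order of high libraries, at 52.7, 8.83 and 13.0 FPKM in Ctrl and 13.5, 32.4 and 10.2 FPKM in BKO. Per 100 FPKM of Ckm, Ckmt2 stood between 8.28 and 13.6 FPKM in every library, a 1.65-fold range, whereas Ckmt2 itself ranged 7.41-fold. The genes most like Ckmt2 by the same measure were Myot (0.127) and Myoz1 (0.140), which encode proteins of the muscle Z-disc, and A930016O22Rik (0.144), annotated as antisense to Ckm. Slow and cardiac muscle markers, of which 4 of 12 are listed, summed to 1.23 to 24.8 FPKM in Ctrl and 1.84 to 6.01 FPKM in BKO, again highest in Ctrl-1 and then BKO-2, and Tnni1 is listed at 0 in Ctrl-3. The part of muscle RNA in the Ckmt2 values was not tested.

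**Figure D2:**
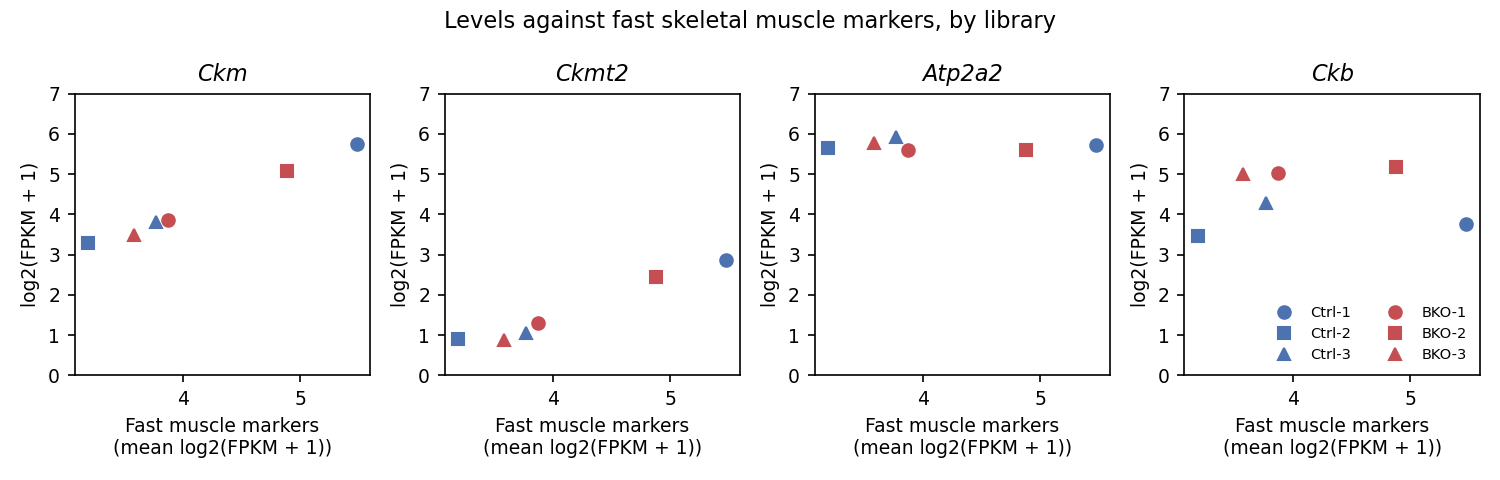
log2(FPKM + 1) of Ckm, Ckmt2, Atp2a2 and Ckb (vertical axes, same scale) against the mean log2(FPKM + 1) of 14 fast skeletal muscle markers (horizontal axes), 1 point per library. Ckm, itself 1 of those markers, and Ckmt2 are highest in Ctrl-1 and BKO-2. Atp2a2 stays between 47.1 and 59.5 FPKM. Ckb is higher in every BKO library than in any Ctrl library.

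Among the listed creatine kinases, Ckb held the largest share in every library except Ctrl-1, where Ckm took 73.7%. Ckb took 17.6%, 50.6% and 56.9% of the summed FPKM of Ckb, Ckm and Ckmt2 in Ctrl, and 68.0%, 49.0% and 73.6% in BKO. The groups overlapped through BKO-2, one of the muscle-rich libraries (means 41.7 ± 21.1% and 63.6 ± 12.9%, SD, n = 3 per group, exact two-sided permutation p = 0.3). Ckmt2 took 5.51 ± 2.87% and 3.76 ± 2.12% (exact permutation p = 0.5). With Ckm left out of the sum, the Ckb share was 9.56 percentage points higher in BKO (exact permutation p = 0.5), against 21.9 points with it.

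**Figure D3:**
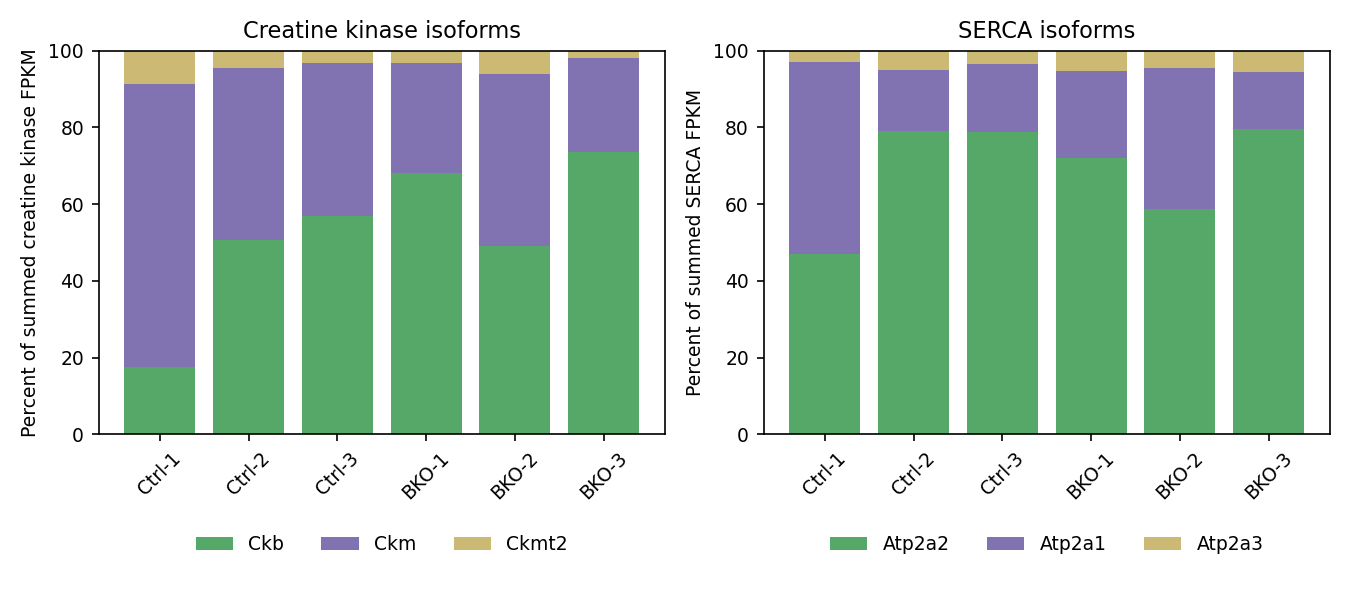
Percent of summed FPKM (vertical axes) taken by Ckb, Ckm and Ckmt2 (left) and by Atp2a2, Atp2a1 and Atp2a3 (right) in each library. The muscle isoforms Ckm and Atp2a1 take their largest shares in Ctrl-1 (73.7% and 49.9%) and BKO-2 (44.9% and 36.8%), except that the Ckm share is also 44.9% in Ctrl-2.

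None of the genes of creatine synthesis and uptake passed the test. Gatm, glycine amidinotransferase, which makes the creatine precursor guanidinoacetate, stood at 1.62, 1.55 and 0.749 FPKM in Ctrl and 2.48, 1.87 and 1.45 FPKM in BKO. The groups overlapped because BKO-3 lay below 2 Ctrl libraries, and the difference was 0.35 (95% interval -0.11 to 0.81, limma adjusted p = 0.599). It was 0.17 without Ctrl-3, 0.22 without BKO-1 and 0.57 with a pseudocount of 0.1 FPKM, and did not pass in any of these. Gamt, which methylates guanidinoacetate to creatine, stood at 3.04, 3.02 and 2.76 FPKM in Ctrl and 3.47, 2.62 and 2.49 FPKM in BKO. BKO held both the highest and the lowest Gamt values, with a difference of -0.04 (95% interval -0.31 to 0.24, limma adjusted p = 0.948). Leaving out 1 library moved it between -0.15 without BKO-1 and 0.03 without BKO-3. Slc6a8, the creatine transporter of the plasma membrane, stood at 10.4, 12.3 and 8.25 FPKM in Ctrl and 8.40, 10.3 and 7.90 FPKM in BKO. Its groups overlapped, with a difference of -0.19 (95% interval -0.54 to 0.16, limma adjusted p = 0.714). Leaving out 1 library moved it between -0.07 without Ctrl-2 and -0.33 without Ctrl-3. None of these p-values shows that the groups are alike.

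Alpl encodes tissue-nonspecific alkaline phosphatase, the enzyme reported to hydrolyse phosphocreatine in thermogenic fat. It stood at 7.32, 6.91 and 9.87 FPKM in Ctrl and 11.7, 9.85 and 7.30 FPKM in BKO. BKO-1 was the highest library, BKO-3 lay among the lower controls, and the difference was 0.23 (95% interval -0.20 to 0.65, limma adjusted p = 0.725). Leaving out 1 library moved it between 0.09 without BKO-1 and 0.39 without BKO-3, and it did not pass in any of these fits.

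Atp2a2, the SERCA pump of most non-muscle cells and of slow muscle, was the most abundant member and the steadiest. It stood at 51.3, 49.3 and 59.5 FPKM in Ctrl and 47.6, 47.1 and 53.8 FPKM in BKO, a 1.26-fold range over the 6 libraries. The groups overlapped and the difference was -0.10 (95% interval -0.32 to 0.12, limma adjusted p = 0.764). Leaving out 1 library moved it between -0.02 without Ctrl-3 and -0.16 without BKO-3. Gene-level values do not separate its SERCA2a and SERCA2b transcripts. Atp2a1, the pump of fast muscle, stood at 54.3, 10.0 and 13.5 FPKM in Ctrl and between 9.99 and 29.6 FPKM in BKO, again high in Ctrl-1 and BKO-2. Atp2a2 took 68.3 ± 18.3% of the summed SERCA FPKM in Ctrl and 70.1 ± 10.6% in BKO (SD, n = 3 per group, exact two-sided permutation p = 0.8). Atp2a3, the pump of blood and endothelial cells, stood at 3.29, 3.08 and 2.56 FPKM in Ctrl and 3.58, 3.63 and 3.71 FPKM in BKO. Its groups did not overlap, as for 15.9% of all tested genes. The difference of 0.23 did not pass (95% interval -0.00 to 0.46, limma adjusted p = 0.492).

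**Figure D4:**
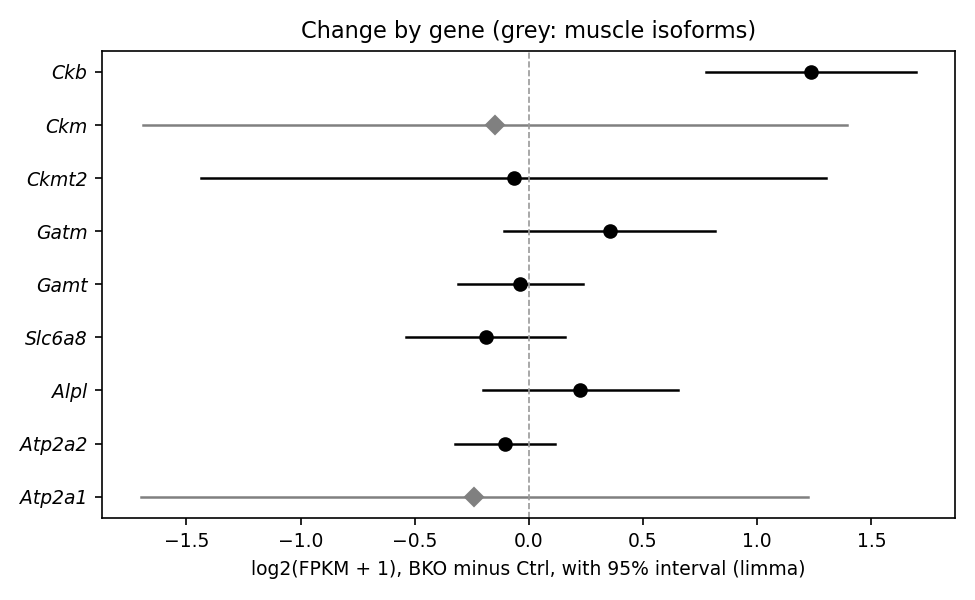
Difference in log2(FPKM + 1), BKO minus Ctrl, with its 95% interval from limma, for the 7 listed members (black) and for the muscle isoforms Ckm and Atp2a1 (grey). The interval of Ckb, 0.78 to 1.70, lies above 0, and the other 6 members' intervals include 0.

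By level per transcript length, Atp2a2 lay above every other member in each library. In Ctrl the order of mean FPKM after it was Ckb (13.7), Slc6a8 (10.3), Alpl (8.03), Gamt (2.94), Ckmt2 (2.74) and Gatm (1.31). Ckb and Slc6a8 overlapped there, as did Slc6a8 and Alpl. In BKO the order was Ckb (32.7), Alpl (9.62), Slc6a8 (8.85), Gamt (2.86), Ckmt2 (2.24) and Gatm (1.93), with every Ckb value above every Alpl value and with Alpl and Slc6a8 overlapping. Gamt, Ckmt2 and Gatm were lowest in both groups, Ckmt2 overlapped both other genes in each, and every value of these 3 genes lay below every Alpl value. No value in BKO-3 lay between 0 and 0.486 FPKM, a level below which the other libraries hold between 341 and 632 values above 0. Ckmt2 in BKO-3, at 0.846 FPKM, was the member nearest to it.

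Reads of some members could be shared with similar genes. In GENCODE vM21, 21.9% of the 1423 distinct stretches of 50 bases in Ckb transcripts also occur in transcripts of 3 other genes, nearly all of them (309) in Gm12892. For Ckmt2 it was 2.51%, in an antisense gene, for Atp2a2 4.61% and for Ckm 11.5%, in A930016O22Rik. Gatm, Gamt, Slc6a8 and Alpl shared none. How the authors' counting treated such reads is not given, so the levels of Ckb, Ckm, Ckmt2 and Atp2a2 are uncertain in this respect. The library kit named in the labels does not mark strand.

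The genes around both cycles gave no call. Of 8 lists of related genes, 70 genes beside the members were listed and 61 tested, and 0 passed over all genes with limma. At an unadjusted p below 0.05 there were 5 (8.20%), beside 10.2% of all genes. BKO lay above Ctrl without overlap in 5 of 61 (8.20%) and below in 5 of 61 (8.20%), against 9.06% and 6.82% of all genes. Their median log2 difference was -0.03.

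Creatine supply and its substrates are described first. Slc6a6, the taurine transporter, related to the creatine transporter, averaged 25.4 ± 0.980 FPKM in the Ctrl libraries and 26.7 ± 0.829 FPKM in the BKO libraries (SD, n = 3 per group). Among 10 tested genes of arginine, ornithine and methyl donor handling, 7 were positive and 3 negative, with a median of 0.04. Its most abundant genes were Ahcyl1, a relative of S-adenosylhomocysteine hydrolase, at 231, 228 and 231 FPKM in Ctrl and 189, 192 and 193 FPKM in BKO, and Mat2a, which makes S-adenosylmethionine, at 83.1 ± 8.06 and 84.1 ± 15.6 FPKM. The Ahcyl1 groups did not overlap, as for 15.9% of all tested genes. Its difference of -0.26 did not pass (limma adjusted p = 0.221). Oat, ornithine aminotransferase, was picked with its values in view and stood at 27.2, 23.0 and 21.6 FPKM in Ctrl and 27.7, 30.5 and 28.4 FPKM in BKO (limma adjusted p = 0.420).

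None of the phosphatase and nucleotide exchange genes passed the test. Of 6 tested phosphate and pyrophosphate genes 3 were positive and 3 negative (median -0.01). Phospho1, a phosphatase of phosphocholine and phosphoethanolamine, stood at 298 ± 26.1 and 273 ± 28.1 FPKM, and Ppa1, cytosolic pyrophosphatase, at 190 ± 17.9 and 211 ± 14.1 FPKM. Of 8 tested genes of mitochondrial ADP and ATP exchange, which hand nucleotides to mitochondrial creatine kinase, 6 were negative and 2 positive (median -0.09). Vdac2, a channel of the outer mitochondrial membrane, was the single one of the 8 whose groups did not overlap, beside 15.9% of all tested genes. It stood at 147.3, 147.6 and 152.3 FPKM in Ctrl and 130.3, 146.8 and 135.8 FPKM in BKO (limma adjusted p = 0.625). Its Ctrl-1 and BKO-2 values nearly met. Slc25a5, the ubiquitous ADP/ATP carrier, averaged 321 FPKM in Ctrl and 314 FPKM in BKO, with 289 FPKM in BKO-3 and 337 FPKM in BKO-2. Slc25a4, the carrier of heart and muscle, stood at 196 ± 19.3 and 176 ± 17.2 FPKM.

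Calcium genes beyond the pumps went both ways. Of 13 tested release channels and partners, 9 were negative and 4 positive (median -0.03). Fkbp1a, a channel-binding immunophilin, stood at 66.9 ± 4.39 and 60.5 ± 4.86 FPKM, and the calmodulin gene Calm2 at 59.8 ± 2.75 and 64.9 ± 5.16 FPKM. Srl, sarcalumenin, a calcium-binding protein of the reticulum lumen, was picked with its values in view and stood at 24.2, 22.5 and 27.9 FPKM in Ctrl and 19.2, 20.1 and 19.3 FPKM in BKO. All its BKO values lay below Ctrl, and its difference of -0.33 did not pass (limma adjusted p = 0.287). Of 13 tested genes of calcium entry, export and mitochondrial uptake, 9 were positive and 4 negative (median 0.12). 1500032L24Rik, now called Smdt1, a regulator of the mitochondrial calcium uniporter, stood at 119 ± 4.14 and 133 ± 18.6 FPKM, and Letm1, a mitochondrial cation exchanger, at 46.3 ± 3.59 and 52.3 ± 7.86 FPKM.

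Also picked with their values in view, Slc24a6, now called Slc8b1, the mitochondrial sodium/calcium exchanger, and Stim1, the calcium sensor of store-operated entry, had groups that did not overlap in opposite directions. Of the 13 tested genes of their list, BKO lay above Ctrl without overlap in 2 and below in 2. Over all tested genes these shares were 9.06% and 6.82%. Slc24a6 stood at 6.52, 5.88 and 4.50 FPKM in Ctrl and 8.50, 7.19 and 7.79 FPKM in BKO (limma adjusted p = 0.343). Stim1 stood at 28.2, 26.8 and 27.7 FPKM in Ctrl and 22.5, 22.4 and 26.2 FPKM in BKO (limma adjusted p = 0.432). Of 7 tested adrenergic receptor and Gq genes, which carry the sympathetic signal for both cycles, 6 were negative and 1 positive (median -0.11). Adrb3, the main beta receptor of brown fat, stood at 76.8 ± 13.6 and 62.6 ± 11.1 FPKM, and Adra1a, an alpha receptor coupled to calcium release, at 23.1 ± 1.62 and 21.5 ± 4.67 FPKM.

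**Figure D5:**
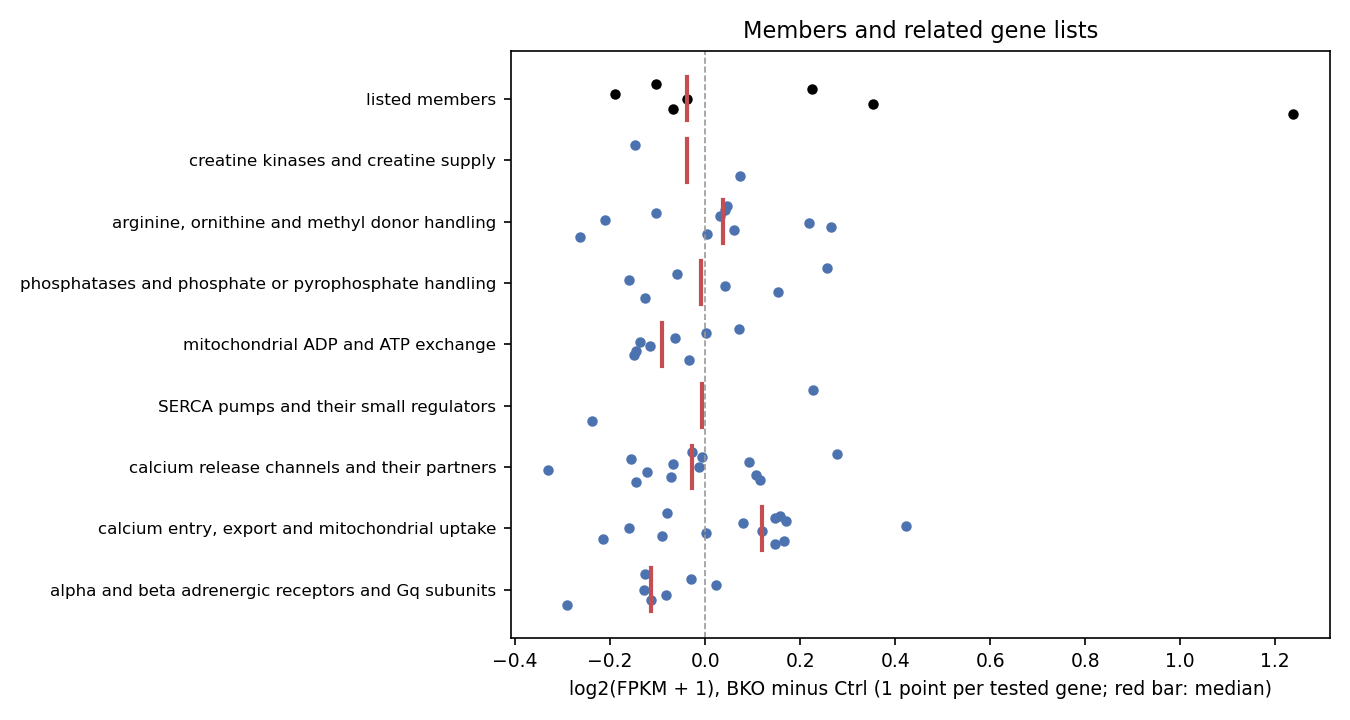
Difference in log2(FPKM + 1), BKO minus Ctrl (horizontal axis), for the 7 listed members and the tested genes of 8 related lists, 1 point per gene, with red bars at the medians. The point at 1.24 is Ckb, and the 61 related genes lie between -0.33 and 0.42.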

How the data were processed

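The deposited table holds FPKM per gene, computed by the authors. The submitters' processing notes name NCBIM37 as the build, and CASAVA 1.8, Cufflinks 2.2.1 and TopHat2 2.0.12 as tools. Their options, annotation and filters are not stated in the sources. Columns named MT are the Ctrl libraries and columns named WT are the BKO libraries, per the labels' descriptions. Genes whose mean reached 1 FPKM entered the test, on log2(FPKM + 1), with limma 3.58.1 in R 4.3.3 (intensity trend, no covariate, Benjamini-Hochberg adjustment over 11397 genes, threshold 0.05). This scale shrinks the differences of genes with low FPKM. Isoform shares were computed from FPKM and compared by exact two-sided permutation tests (scipy 1.17.1). The members, gene lists and tests were chosen with earlier results of these data known. Named genes are all members, the 2 most abundant genes of each related list, any gene of those lists past the test, the most abundant gene where a marker list is described by name, and the 3 genes nearest in profile to members ranging over at least 1 log2 unit. Bscl2, Ckm, Atp2a1 and Ucp1 were named whatever their test. Outside this rule, Oat, Srl, Slc24a6, Stim1, Vdac2, Itgam, Cd163, Tnni1 and the genes of the closing section were named with their values in view. Older symbols were matched through RefSeq. Promoters come from RefSeq (GRCm38.p6), where Slc6a8 and Atp2a2 had no entry, and shared stretches from GENCODE vM21. The test was first run on simulated data with independent noise of the fitted variances. These held no shifts in cell mix and no outlying library. There it called 96% of the 2-fold and 100% of the 4-fold changes set, with 5 false calls among 201. These rates need not hold for the real libraries.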

Additional observations from a re-analysis of the deposited data

How the results depend on the processing

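Over 14 alternatives, the Ckb difference stayed between 1.04 and 1.46 (adjusted p 0.0184 to 0.483, limma) and passed only without Ctrl-3. The other 6 members did not pass in any. With 1 library left out, the number of members called was 0 to 1. The number of genes called over the table, 19 in the fit described, was 12 with no filter on mean FPKM, 9 with the muscle score as covariate, and 6 to 32 with 1 library left out (6 without BKO-1, 9 without Ctrl-2, 32 without BKO-3). The causes were not tested. Differences near 0 changed sign with 1 library left out: Ckmt2 ranged from -0.52 to 0.56, Gamt from -0.15 to 0.03 (0.032 without BKO-3), Ckm from -0.64 to 0.58, Atp2a1 from -0.69 to 0.47 and Ucp1 from -0.02 to 0.23. Without both Ctrl-1 and BKO-2, an alternative chosen after seeing the data because their muscle markers were highest, they were 0.11, 0.02, 0.12, 0.07 and -0.018 in that order, and Ckb was 1.14 (adjusted p = 0.483). Pseudocount 0.1, median ratio rescaling, quantile normalization and no intensity trend changed no member's direction or call. Without Ckm in the sum, the difference in Ckmt2 share went from -1.75 to -9.56 percentage points. Only Ckb and Ckmt2 then remain, so this is the Ckb difference of 9.56 points with its sign turned. With 1 library left out, the difference in share ranged from 9.81 to 29.5 points for Ckb, from -2.93 to -0.13 for Ckmt2 and from -8.77 to 7.53 for Atp2a2.

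Same-numbered libraries did not all deviate together. The correlations of deviations across genes were 0.196 for number 1, where they did, but -0.104 and -0.100 for numbers 2 and 3. Ctrl-3 and BKO-2, with different numbers, reached 0.219, and the numbers were not taken as pairs. With the replicate number as a block, 25 genes were called, none of them a member, and the adjusted p of Ckb was 0.105 (limma). Not every library correlated best with its own number. The unknown read depth limits the low members most.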

Other observations

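Of the related genes, 9 lay below the 1 FPKM mean needed for the test. Their values were seen before they were chosen for mention, and none was tested. Slc8a1, the sodium/calcium exchanger of the plasma membrane, stood at 0.0703, 0.131 and 0.170 FPKM in Ctrl, at 0.153 and 0.123 FPKM in BKO-1 and BKO-2, and at 1.40 FPKM in BKO-3, the single library that stood apart. Pln, phospholamban, the small inhibitor of the Atp2a2 pump, stood at 0.729, 0.527 and 0.334 FPKM in Ctrl and 0.863, 0.764 and 0.939 FPKM in BKO, with groups that did not overlap. Slc7a1, a carrier of arginine, stood at 0.547, 0.448 and 0.532 FPKM in Ctrl and 0.713, 0.840 and 0.573 FPKM in BKO, also without overlap. The groups overlapped for the others, which are the calcium genes Itpr3, Jph1, Casq2 and Ccdc109b, the arginine carrier Slc7a2 and the adenylate kinase Ak4. Among all 11397 tested genes, 15.9% had groups that did not overlap. BKO-3 held no value between 0 and 0.486 FPKM, where the other libraries held between 341 and 632 values. The lowest BKO value of Slc7a1 (0.573 FPKM) and the high value of Slc8a1 both came from BKO-3. The effect of this limit on these low genes was not tested.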
